A study of Homo sapiens with 24 samples.

Results

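The genes described here are 45 genes of the hypoxia response and of glycolysis, taken as a named list and looked up by symbol among the 60236 Ensembl genes of the count table. Of the 45 genes, 44 had a row, namely 11 of the 12 glycolytic enzymes and all 33 other members, which were mostly known targets of hypoxia-inducible factors (HIFs) together with HIF1A, EPAS1 and their regulators. The remaining enzyme, LDHA, was not analysed here. Poly(A) RNA was sequenced from the embryonic kidney line HEK293T, kept in DMEM, and the lung adenocarcinoma line A549, kept in F-12K, both human, 48 h after lipid transfection. The study asked how raised levels of snaR-A, a small noncoding RNA made by RNA polymerase III, and of SF3B2, a subunit of the U2 snRNP, change mRNAs. Each line received 1 of 4 plasmids. In the snaR-A group a U6 promoter drove snaR-A, and in the scramble group a U6 promoter drove a shuffled version of its sequence. In the SF3B2 and eGFP groups a pcDNA3.1 vector with a C-terminal FLAG-type (DYK) tag expressed the splicing protein or the green fluorescent protein. Each of the 8 groups had 3 libraries. Low oxygen was not among the treatments, and no untransfected group was analysed here.

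When oxygen is plentiful, prolyl hydroxylases of the EGLN family mark the HIF alpha subunits HIF1A and EPAS1 for destruction by the VHL ubiquitin ligase. When oxygen falls, the alpha subunits persist, pair with ARNT and bind a short DNA motif near genes for glucose uptake, glycolysis, mitophagy, collagen modification and blood vessel growth. HIF alpha subunits are controlled mainly as proteins, so their mRNA levels need not follow their activity. Several of the target genes also respond to other signals, and glycolytic enzymes are abundant in most dividing cells.

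The estimated counts summed to between 195186194 per library (HEK293T eGFP replicate 3) and 260878268 (A549 scramble replicate 2). Levels are given as CPM (counts per 1000000 counts of the library, scaled over all 24 libraries by the TMM method) and, where genes are set against each other, as CPM per kb of the gene's canonical transcript. A gene was called higher or lower at an adjusted p under 0.05, where p came from the quasi-likelihood F-test of edgeR and was adjusted over all genes tested by the Benjamini-Hochberg method. The replicates were described as biological and handled on the same day, and the p-values measure the spread between these libraries. In bulk RNA, fewer cells of a kind and less RNA of a gene per cell cannot be told apart.

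Some libraries stood apart from their groups. In HEK293T eGFP replicate 3, 7 genes typical of A549 summed to 710.1 CPM, against 41.89 and 44.59 CPM in the other eGFP libraries and 18160 to 20360 CPM in the A549 libraries. The most abundant of them there was ALDH1A1, an aldehyde dehydrogenase, at 423.6 CPM, and none of the 7 was at 0 in any HEK293T library. CPS1, a urea cycle enzyme on the same list, was also present in the other HEK293T libraries. HEK293T SF3B2 replicate 3 had more of these markers than its group as well, with AKR1B10 at 4.76 CPM against 0.237 and 0.308 CPM, AKR1C3 at 1.63 against 0.154 and 0.118 CPM and ALDH1A1 at 12.4 against 5.40 and 5.12 CPM, and their part in the results was not tested. In A549 scramble replicate 3, SF3B2 was at 8743 CPM, against 369.6 and 341.0 CPM in the other scramble libraries and 45210 to 48710 CPM in the A549 SF3B2 libraries. Some label fields of A549 snaR-A replicate 3 named HEK293T, whereas its A549 markers summed to 18500 CPM, within the range of the other A549 libraries. For each comparison that used HEK293T eGFP replicate 3, HEK293T SF3B2 replicate 3 or A549 scramble replicate 3, the count of called genes of the list without that library is given beside the result. The HEK293T markers, 7 genes of which the neurofilament gene NEFM was mostly the most abundant, did not hold still across the HEK293T groups. They summed to 747.3 to 825.3 CPM in scramble, 522.3 to 565.5 CPM in snaR-A, 465.4 to 474.2 CPM in eGFP and 497.5 to 651.2 CPM in SF3B2. The high sum in scramble came mostly from NEFM, at 353 to 393 CPM there and 128 to 132 CPM in eGFP, whereas INA was lowest in scramble (18.4 to 19.1 CPM) and ZIC2 was highest in SF3B2 (51.9 to 68.7 CPM). Their part in the results was not tested. Of these 7 markers, INA was more abundant in A549 than in HEK293T.

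In HEK293T the median member was highest in the scramble libraries and lowest in the eGFP libraries, with snaR-A and SF3B2 between them. In A549 no such order of the groups was seen in the median. Each gene was set against its own mean log2 level over the 12 libraries of its line. The median member then lay at 0.44, 0.47 and 0.31 in the HEK293T scramble libraries, 0.05, -0.11 and -0.01 in snaR-A, -0.12, -0.13 and -0.10 in SF3B2 and -0.27, -0.33 and -0.27 in eGFP. All 3 scramble libraries were above the other 9, and all 3 eGFP libraries were below the rest. For the enzymes alone the eGFP and SF3B2 groups overlapped. Their medians were -0.16, -0.23 and -0.23 in eGFP and -0.23, -0.19 and -0.02 in SF3B2. Over the 23869 genes kept in the line the median lay between -0.02 and 0.02 in every HEK293T library. In A549 the median member lay between -0.07 and 0.04 in all 12 libraries, although members went either way and the median of the enzymes alone ran from -0.24 to 0.12 among the A549 scramble libraries.

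**Figure D1:**
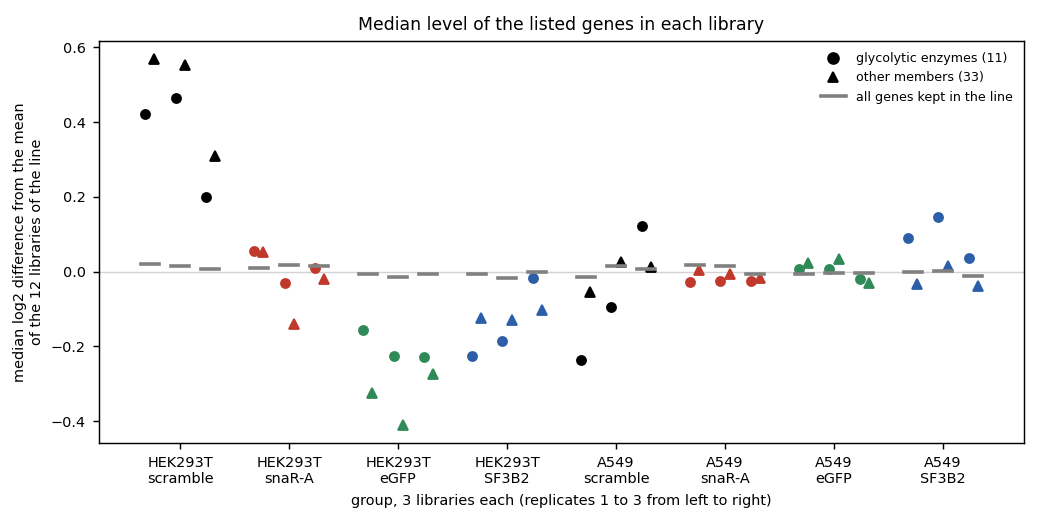
Each symbol is 1 library, placed at the median difference in log2 level of the 11 measured glycolytic enzymes (circles) or the 33 other members (triangles) from their mean over the 12 libraries of the line, and grey bars mark the same median over all genes kept in the line. In HEK293T the scramble symbols lie between 0.20 and 0.57 while the symbols of the other 3 groups lie between -0.41 and 0.06.

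**Figure D2:**
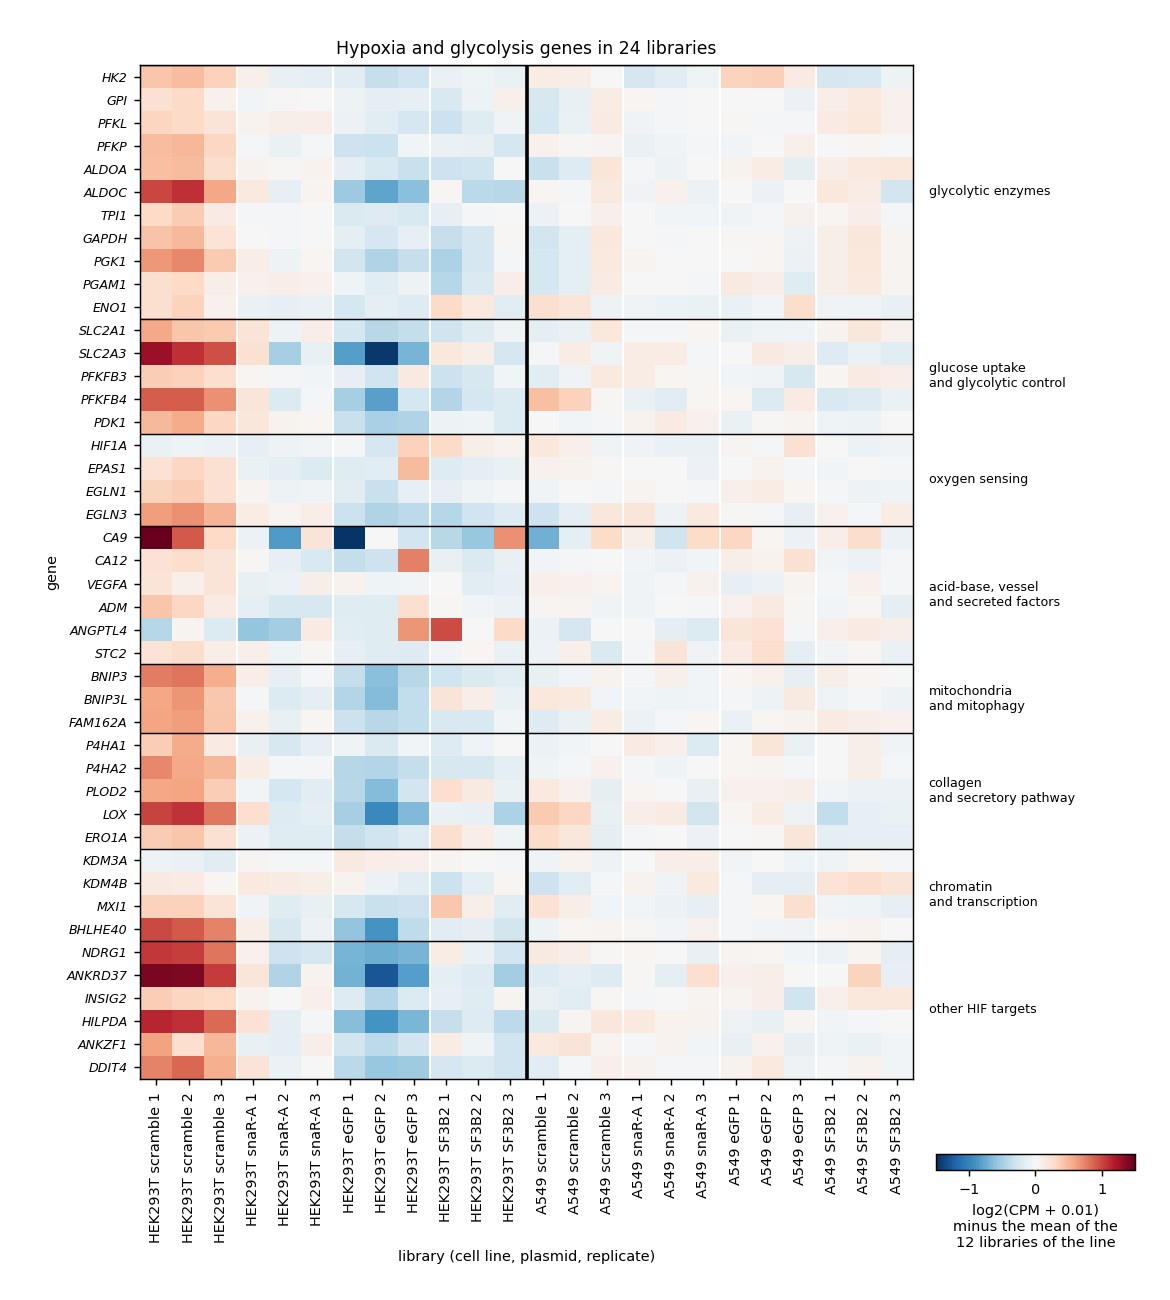
Rows are the 44 measured genes ordered by role and columns are the 24 libraries, and colour gives log2(CPM + 0.01) minus the mean of the 12 libraries of the line, from -1.5 (blue) to 1.5 (red). Red fills the 3 HEK293T scramble columns for nearly all genes except HIF1A, KDM3A and ANGPTL4, and the A549 columns are mostly pale.

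Against scramble, snaR-A in HEK293T went with lower levels of 39 of the 44 measured genes and a higher level of 1, KDM3A. Among all 22667 genes tested in this comparison, 18.5% were lower and 17.8% were higher. The median log2 fold change of the list was -0.46, against -0.01 over all genes tested. A fall beyond -1 on the log2 scale was seen for 4 of the genes (CA9, ANKRD37, SLC2A3 and NDRG1), where 0.79% of all genes tested passed the same limit. The 4 genes not called were PGAM1, HIF1A, ANGPTL4 and KDM4B. With no untransfected group analysed here, a fall with snaR-A and a rise with scramble cannot be told apart.

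Glycolytic enzymes and other HIF targets both took part. Among the 11 measured enzymes, 10 fell, and the median log2 fold change of the 11 was -0.34. Among the 33 other members, 29 fell, and the median was -0.50. The difference between these medians was not tested. The largest fall among the enzymes was that of ALDOC, the brain-type aldolase, at -0.87 (standard error, SE, 0.13, adjusted p = 0.00155 by edgeR). PGK1, phosphoglycerate kinase, which makes the first ATP of the pathway, fell by 0.56 (SE 0.09, adjusted p = 0.00192). It measured 775, 810.0 and 644 CPM in scramble and 529, 469 and 501 CPM in snaR-A, so the groups did not overlap. HK2, the hexokinase that traps glucose in the cell, fell by 0.46 (adjusted p = 0.00123), and GAPDH, the dehydrogenase often taken as a reference gene, fell by 0.37 (adjusted p = 0.00597). GAPDH was at 1695, 1752 and 1442 CPM in scramble and 1261, 1230.0 and 1259 CPM in snaR-A. The smallest differences in this group were those of PGAM1, phosphoglycerate mutase, at -0.13, which did not pass the test, and of PFKL, the liver-type phosphofructokinase, at -0.18 (adjusted p = 0.00966). Transcripts of PGAM1 and ALDOA share 47.3% and 43.0% of their 31-base sequence words with other genes, so their counts are less certain.

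Genes that bring glucose in and steer its use were lower in 5 of 5 cases. SLC2A3, the high-affinity glucose transporter GLUT3 (ENSG00000059804, chr12:7919230-8019007, minus strand, GRCh38), measured 49.4, 43.2 and 39.7 CPM in the HEK293T scramble libraries and 23.8, 14.4 and 18.8 CPM in snaR-A. No snaR-A library reached the lowest scramble library. The fitted change was -1.20 on the log2 scale (SE 0.16, adjusted p = 0.00114), and 22.3% of its sequence words occur in the close paralog SLC2A14. SLC2A1, the basal transporter GLUT1, fell by 0.37 (adjusted p = 0.00605). PDK1, the kinase that shuts the pyruvate dehydrogenase complex, fell by 0.36 (adjusted p = 0.00402), and PFKFB3 and PFKFB4, which set the level of fructose 2,6-bisphosphate, were also lower.

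Of the oxygen sensing genes, 3 of 4 were lower and HIF1A was not called. HIF1A, the main HIF alpha subunit, was at 139, 142 and 139 CPM in scramble and 136, 141.0 and 144 CPM in snaR-A, and the groups overlapped (log2 fold change 0.02, adjusted p = 0.768). EPAS1, which encodes HIF2 alpha, fell by 0.39 (SE 0.04, adjusted p = 0.000647). EGLN3, a prolyl hydroxylase that is itself a HIF target, fell by 0.51 (adjusted p = 0.000473), and EGLN1 was also lower, although 57.8% of its sequence words are shared with other genes.

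Among the genes for acid-base balance, vessels and secreted factors, 5 of 6 were lower. CA9, the membrane carbonic anhydrase widely used as a hypoxia marker (ENSG00000107159, chr9:35673928-35681159, plus strand), was close to the detection limit in HEK293T. It measured 0.136, 0.0814 and 0.0494 CPM in scramble and 0.0355, 0.0168 and 0.0454 CPM in snaR-A. The highest snaR-A library lay just under the lowest scramble library, and CA9 counts in the HEK293T libraries lay between 2 and 39. It changed by -1.45 on the log2 scale (SE 0.49, adjusted p = 0.0489), and it was called in only 1 of the 6 fits that left out a library. VEGFA, the growth factor for blood vessels, fell by 0.18 (adjusted p = 0.0487), a call kept in 2 of the 6 fits that left out a library, as was that of STC2, a secreted glycoprotein. CA12, a second membrane carbonic anhydrase, fell by 0.32 (adjusted p = 0.006).

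All 3 mitochondrial genes were lower. BNIP3 and BNIP3L, receptors that mark mitochondria for autophagy, fell by 0.71 (adjusted p = 0.000575) and 0.66 (adjusted p = 0.000505). The third, FAM162A, a mitochondrial protein, was lower by 0.54. All 5 genes of the collagen and secretory pathway fell too (median -0.56 on the log2 scale). LOX, the lysyl oxidase that crosslinks collagen, fell by 0.97 (SE 0.12, adjusted p = 0.000807), from 54.2, 56.9 and 46.4 CPM to 31.9, 23.5 and 24.5 CPM. PLOD2, a lysyl hydroxylase, fell by 0.66 (adjusted p = 0.000635), and ERO1A, the oxidase that feeds disulphide bond formation, fell by 0.49 (adjusted p = 0.000647).

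Targets of varied function had the lowest median of the roles, -0.83, and 6 of 6 were lower. ANKRD37, an ankyrin repeat protein (ENSG00000186352, chr4:185396021-185400628, plus strand), measured 4.31, 4.26 and 3.35 CPM in scramble and 1.83, 1.18 and 1.67 CPM in snaR-A. The snaR-A libraries were all below the scramble libraries, and the fitted change was -1.34 on the log2 scale (SE 0.17, adjusted p = 0.00102). NDRG1, a stress-responsive growth regulator, was at 245, 243 and 206 CPM in scramble and 124, 95.0 and 99.3 CPM in snaR-A (log2 fold change -1.11, SE 0.11, adjusted p = 0.0004). HILPDA, which promotes storage of lipid droplets, was at 63.8, 61.8 and 52.1 CPM in scramble and 33.7, 26.2 and 28.5 CPM in snaR-A (a fitted change of -49.9%, adjusted p = 0.000459). For both genes every snaR-A library lay well under the lowest scramble library. DDIT4, an inhibitor of mTORC1 signalling that also responds to ATF4, fell by 0.66 (adjusted p = 0.00124).

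The genes of chromatin and transcription were mixed. BHLHE40, a transcriptional repressor, fell by 0.95 (SE 0.09, adjusted p = 0.00041), and MXI1, an antagonist of MYC, was lower as well. KDM3A, a histone H3K9 demethylase (ENSG00000115548, chr2:86440647-86492716, plus strand), was the only higher gene of the list. It measured 93.5, 92.1 and 87.9 CPM in scramble and 102, 97.5 and 97.4 CPM in snaR-A, so the groups did not overlap but lay close together. This change of 0.13 on the log2 scale (SE 0.04, adjusted p = 0.0364) was not called in any of the 6 fits that left out a library. KDM4B, another histone demethylase, was at 0.04 and did not pass the test.

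A copy of the HIF core motif was looked for near these genes. The list was made up mostly of known HIF targets, so the shares below describe the choice of genes and not their change with a plasmid. The motif was searched as ACGTG or GCGTG on either strand in the 300 bases from 250 before to 50 after the start of each gene, in RefSeq promoters of GRCh38.p14. Promoters were matched for 39 of the 45 genes, and 32 of them (82.1%) held at least 1 copy. The share was 60.5% among 13502 genes tested in this comparison that had a promoter and 48.4% among all 27305 promoters. ACGTG, which also forms part of the palindrome CACGTG bound by MYC and by clock and USF factors, was in 53.8% of the promoters of the list, 25.4% of those of the tested genes and 21.6% of all. GCGTG was in 56.4%, 48.2% and 36.3% of them. The promoters of the list were also richer in G and C, with a median of 69.7% against 64.7% for the tested genes and 58.3% for all, and the part of base composition in these shares was not tested. No copy lay in these windows for EGLN3, MXI1, P4HA2, PDK1, PFKP, PGAM1 and TPI1. Genes that did not fall with snaR-A held copies too, with 1 each for KDM3A, HIF1A and ANGPTL4 and 4 for KDM4B. A match is a description of the letters, and binding was not measured here. A stretch of 60 bases from 5 of these promoters is shown 5′ to 3′ on the strand of each gene, chosen from those lower with snaR-A in HEK293T, with every copy on either strand in capitals (CACGT and CACGC are ACGTG and GCGTG read on the other strand). The stretches lie at chr4:185396661-185396720 (ANKRD37, plus strand), chr3:4979248-4979307 (BHLHE40, plus strand), chr10:131982015-131982074 (BNIP3, minus strand), chrX:78104023-78104082 (PGK1, plus strand) and chr10:72273843-72273902 (DDIT4, plus strand).
ANKRD37: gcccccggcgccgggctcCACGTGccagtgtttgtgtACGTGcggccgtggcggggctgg
BHLHE40: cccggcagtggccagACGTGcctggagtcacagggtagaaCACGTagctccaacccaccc
BNIP3: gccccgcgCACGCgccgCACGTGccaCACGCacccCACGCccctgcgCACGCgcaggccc
PGK1: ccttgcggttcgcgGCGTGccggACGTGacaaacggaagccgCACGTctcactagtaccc
DDIT4: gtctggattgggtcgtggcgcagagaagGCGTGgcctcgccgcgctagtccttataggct

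The eGFP and SF3B2 groups of HEK293T were set against the same 3 scramble libraries, so these comparisons share their controls and are given side by side. Both also differ from scramble in the vector and its promoter. With eGFP, 37 of the 44 genes were lower and 1 was higher, where 25.8% of all genes tested were lower and 22.9% were higher. The median log2 fold change was -0.62 over the list and -0.01 over all genes tested, and 12 genes fell beyond -1, where 2.98% of all genes tested did. With SF3B2, 34 genes were lower and 1 was higher, where 17.5% of all genes tested were lower and 16.8% were higher. The median was -0.49, and 8 genes fell beyond -1, where 2.24% of all genes tested did. Without scramble replicate 1, 35 genes were called with eGFP and 26 with SF3B2, where 37% and 16.8% of all genes tested were called in either direction. Without SF3B2 replicate 3, 37 genes were called with SF3B2, where 38.8% of all genes tested were.

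All 11 measured glycolytic enzymes fell with eGFP (median -0.53 on the log2 scale), and 8 of 11 fell with SF3B2 (median -0.47). The other members had medians of -0.79 with eGFP and -0.50 with SF3B2. ANKRD37 had the largest called fall in both. It measured 0.984, 0.655 and 0.905 CPM with eGFP and 1.46, 1.41 and 1.12 CPM with SF3B2, all under the 3.35 CPM of the lowest scramble library. It changed by -2.21 on the log2 scale (SE 0.18, adjusted p = 0.000156) with eGFP and -1.56 (SE 0.16, adjusted p = 0.0011) with SF3B2. SLC2A3 fell to 11.4, 7.39 and 12.5 CPM with eGFP (log2 fold change -2.06, adjusted p = 0.000209) and to 22.6, 21.5 and 17.0 CPM with SF3B2 (log2 fold change -1.09, adjusted p = 0.0014). CA9 fell to 0.00745, 0.0383 and 0.0297 CPM with eGFP (log2 fold change -1.81, adjusted p = 0.0389), a call that was lost without eGFP replicate 3. With SF3B2 it measured 0.0263, 0.0226 and 0.0680 CPM, which overlapped scramble, and was not called (adjusted p = 0.141). HILPDA was at 18.5, 15.5 and 18.0 CPM with eGFP and 22.8, 25.3 and 22.0 CPM with SF3B2, in both well under the lowest scramble library. Its log2 fold changes were -1.76 (adjusted p = 7.37e-05) and -1.32 (adjusted p = 0.000583). LOX was at 19.0, 13.7 and 17.0 CPM with eGFP and 25.0, 24.8 and 19.3 CPM with SF3B2, with log2 fold changes of -1.65 (adjusted p = 0.00012) and -1.17 (adjusted p = 0.00111). It too was below every scramble library in both groups.

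A single member was called higher in each of these comparisons. KDM3A was higher with eGFP, at 108, 105.9 and 104 CPM against 87.9 to 93.5 CPM in scramble (log2 fold change 0.23, SE 0.04, adjusted p = 0.00369). With SF3B2 its log2 fold change was 0.14 (adjusted p = 0.0657). HIF1A was higher with SF3B2, at 181, 157 and 154 CPM (log2 fold change 0.25, SE 0.07, adjusted p = 0.0336), with all 3 libraries above scramble, but this call was kept in only 2 of the 6 fits that left out a library and was lost without scramble replicate 1 (adjusted p up to 0.119). With eGFP it was spread over 145, 125.0 and 189 CPM and was not called (adjusted p = 0.413). The library at 189 CPM was the one that carried A549 marker RNA, and HIF1A is more abundant in A549. The same eGFP library was the highest of its group for EPAS1 (48.0 CPM against 30.5 and 30.8 CPM) and CA12 (33.9 CPM against 15.7 and 16.2 CPM). Whether A549 RNA had a part in the levels of HIF1A, EPAS1 and CA12 in this library was not tested. Without it, 39 genes were called against scramble, where 46.5% of all genes tested were. EPAS1 then stood at -0.41 on the log2 scale (adjusted p = 0.000715), CA12 at -0.54 (adjusted p = 0.000393) and ADM, a vasodilator peptide, at -0.45 (adjusted p = 0.00763), whereas none of these 3 was called with it. CA9 and VEGFA were called with that library but not without it, when their adjusted p by edgeR was 0.0584 and 0.125. Their log2 fold changes moved little, from -1.81 to -1.93 for CA9 and from -0.16 to -0.14 for VEGFA.

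**Figure D3:**
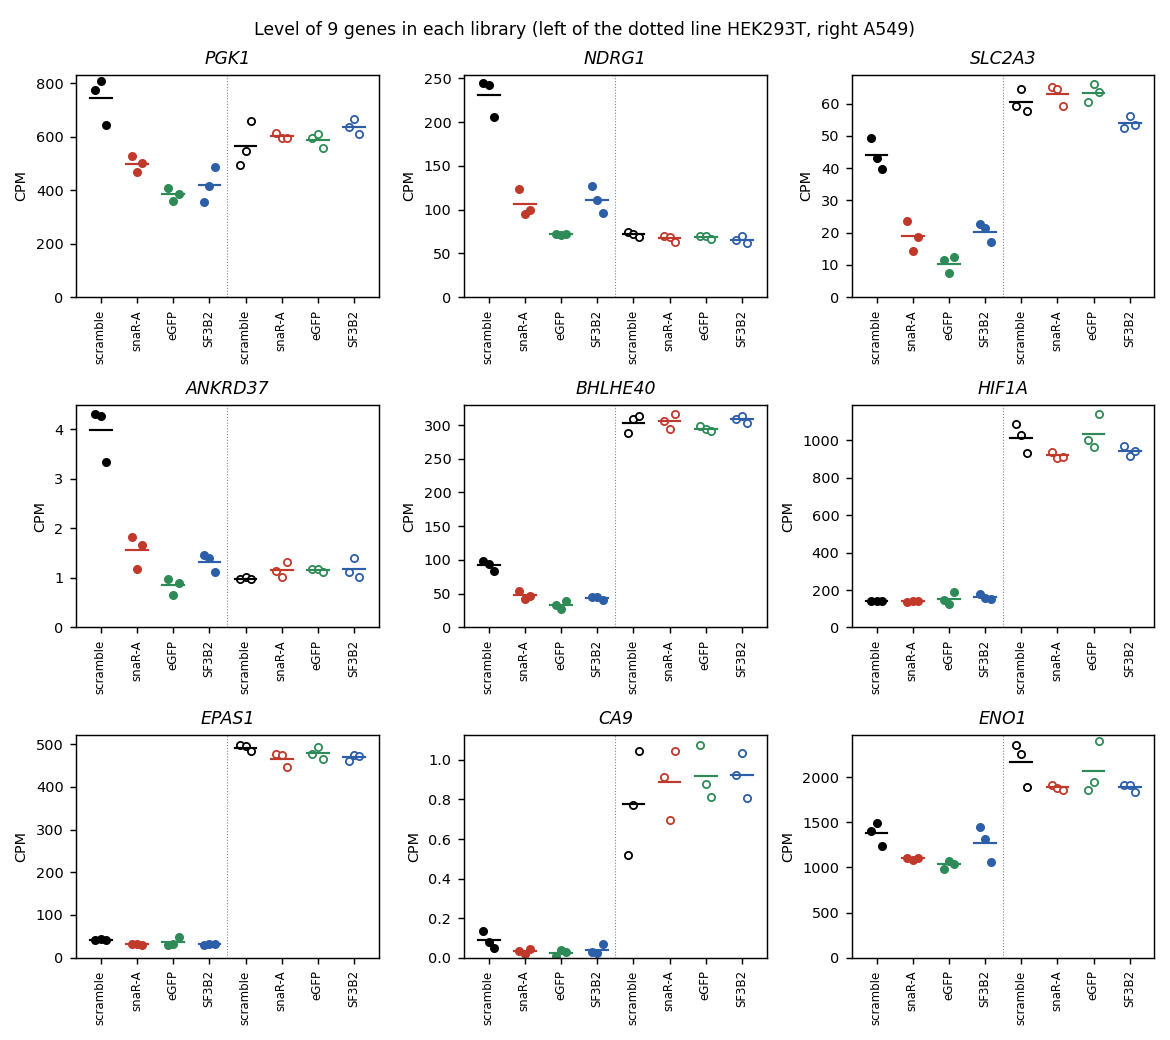
Each panel plots 1 gene in CPM on an axis from 0, each point is 1 library and the bar is the mean of 3 libraries, with HEK293T to the left of the dotted line (filled) and A549 to the right (open). In HEK293T, SLC2A3 runs from 49.4 CPM in a scramble library to 7.39 CPM in an eGFP library, while all 12 A549 libraries lie between 52.5 and 66.0 CPM.

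Set directly against eGFP, the protein-coding control on the same vector, SF3B2 in HEK293T gave no call among the 43 members tested by edgeR's quasi-likelihood test. CA9 was too low to be tested. Calls were rare in this comparison, with 0.0398% of all genes tested higher and 0.133% lower. At an unadjusted p under 0.05, 18 members were reached, all 18 higher with SF3B2, where 21.7% of all genes tested were reached in either direction. DESeq2 called 13 of the members and edgeR's exact test 7, where 11.3% of the genes with an adjusted p in DESeq2 and 2.85% of those in the exact test were called. The median log2 fold change was 0.17, and 33 members had a positive value. SLC2A3 had the largest, 0.95 (SE 0.21, adjusted p = 0.104), followed by ANKRD37 at 0.63 (adjusted p = 0.159) and NDRG1 at 0.62 (adjusted p = 0.0693). Without SF3B2 replicate 3, 10 members were called, where 8.09% of all genes tested were. Without eGFP replicate 3 none was, and SLC2A3 then stood at 1.10.

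In A549, snaR-A against scramble gave no call among the 44 genes in edgeR's quasi-likelihood test, DESeq2 or edgeR's exact test. Of all genes tested, 0.00923% were higher and 0.00923% were lower. An unadjusted p under 0.05 was reached by 6 members, all lower (PFKP, ENO1, PFKFB4, BNIP3L, MXI1 and ANKZF1), where 6.14% of all genes tested reached it. The median log2 fold change was 0.01, and single values lay between -0.37 and 0.23. SLC2A3, which fell in HEK293T, was at 59.3, 64.6 and 57.5 CPM in A549 scramble and 65.0, 64.6 and 59.2 CPM in A549 snaR-A. ANKRD37 was at 0.970, 1.01 and 0.969 CPM in scramble and 1.13, 1.01 and 1.32 CPM in snaR-A. The SLC2A3 values overlapped, the ANKRD37 values of the 2 groups met at about 1 CPM, and neither difference passed the test. Without scramble replicate 3 the count by edgeR's quasi-likelihood test was still 0, with ALDOA at 0.22 (adjusted p = 0.0847) and GAPDH at 0.19 (adjusted p = 0.104), against 0.06 for each with it.

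SF3B2 against eGFP in A549 gave 3 calls among the 44 genes, 2 higher and 1 lower. These counts were near the shares of all genes tested, 3.42% higher and 3.6% lower. KDM4B was higher, at 13.6, 14.2 and 13.6 CPM with SF3B2 and 11.6, 10.8 and 10.7 CPM with eGFP (log2 fold change 0.33, SE 0.06, adjusted p = 0.0185). SLC2A1 was higher, at 82.5, 89.2 and 82.8 CPM against 73.8, 76.1 and 76.5 CPM (log2 fold change 0.18, SE 0.04, adjusted p = 0.044). SLC2A3 was lower, at 52.5, 56.2 and 53.5 CPM against 60.4, 66.0 and 63.7 CPM (log2 fold change -0.22, SE 0.04, adjusted p = 0.0327). The groups of all 3 genes did not overlap, but each call was lost when 1 of several libraries was left out, with SLC2A1 called in 1 of 6 such fits and KDM4B and SLC2A3 in 2 of 6 each. The count of called members rose to 9 without eGFP replicate 3 and with DESeq2, and was 0 with replicate number as a block. The shares of all genes called in those fits are not given here. In the main fit the glycolytic enzymes had a median of 0.08 and none was called.

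Against scramble in A549, edgeR's quasi-likelihood test called none of the 44 genes for SF3B2 or for eGFP. DESeq2 and edgeR's exact test called 2 and 1 of them for SF3B2, where they called 1.92% and 0.997% of all genes, and both called 0 of the members for eGFP. For SF3B2 0.214% of all genes tested were higher and 0.0186% lower, and for eGFP 1.46% were higher and 0.0324% lower. An unadjusted p under 0.05 was reached by 7 members for SF3B2 (3 higher and 4 lower), where 13.1% of all genes tested reached it. For eGFP it was reached by 1 member (ANKZF1, lower), where 6.66% of all genes tested reached it. Without scramble replicate 3 the eGFP count by the quasi-likelihood test was also 0. The SF3B2 result turned on scramble replicate 3, the library with raised SF3B2. Without it, 20 members were called, 11 of them higher and 9 lower, where 10.9% of all genes tested were higher and 11% were lower. The 11 higher genes included the enzymes ALDOA, GAPDH, GPI, PFKL, PGAM1 and PGK1, and the 9 lower genes included the enzyme ENO1 with LOX, PLOD2, ERO1A and SLC2A3. Among the enzymes themselves, scramble replicates 1 and 2 and replicate 3 lay on different sides of the A549 mean, at median differences of -0.24, -0.10 and 0.12. A549 scramble replicate 3 was also the highest A549 scramble library for PGK1 (659 CPM against 496 and 546 CPM) and GAPDH (3502 CPM against 2599 and 2866 CPM).

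Whether the change from scramble to snaR-A differed between A549 and HEK293T was tested as an interaction in edgeR over their 12 libraries. The effect differed for 23 of the 44 genes, all 23 with a higher value in A549, where 4.79% of all genes tested differed in that direction and 6.64% in the other. Of these genes, 3 were among the 11 enzymes and 20 among the 33 other members. ANKRD37 had the largest called difference, 1.55 on the log2 scale (SE 0.25, adjusted p = 0.00362), made up of 0.23 in A549 and -1.34 in HEK293T. SLC2A3 differed by 1.24 (adjusted p = 0.00365), HILPDA by 1.06 (adjusted p = 0.00232), NDRG1 by 0.99 (adjusted p = 0.00178) and BHLHE40 by 0.94 (adjusted p = 0.00116). The log2 fold changes of these 5 genes in A549 lay between -0.11 and 0.23. GAPDH at 0.42 (adjusted p = 0.0704) and SLC2A1 at 0.37 (adjusted p = 0.0664) did not pass. Without A549 scramble replicate 3 the count was 32, where 16.7% of all genes tested differed in either direction.

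The difference between lines in the effect of SF3B2 against eGFP was called for 7 genes, all lower in A549 (SLC2A3, NDRG1, PLOD2, HK2, BNIP3L, ERO1A and PDK1). Of all genes tested, 2.58% differed upward and 3.52% downward. SLC2A3 differed by -1.20 (SE 0.23, adjusted p = 0.0193), NDRG1 by -0.70 (adjusted p = 0.0114), PLOD2 by -0.69 (adjusted p = 0.0227) and HK2 by -0.65 (adjusted p = 0.0108). HK2 was low in A549, between 2.10 and 3.21 CPM. Of these 7 genes, only SLC2A3 was called for SF3B2 against eGFP within a single line, in A549. Leaving out single libraries gave between 3 and 14 calls, replicate number as a block gave 1 and DESeq2 gave 15. The shares of all genes called with the block and with DESeq2 are not given here. SLC2A3 was kept in 7 of 12 fits that left out a library, PDK1 in 3, BNIP3L in 8 and PLOD2 in 5. The count was 8 without HEK293T eGFP replicate 3 and 14 without HEK293T SF3B2 replicate 3, where 6.98% and 17.9% of all genes tested differed in either direction.

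**Figure D4:**
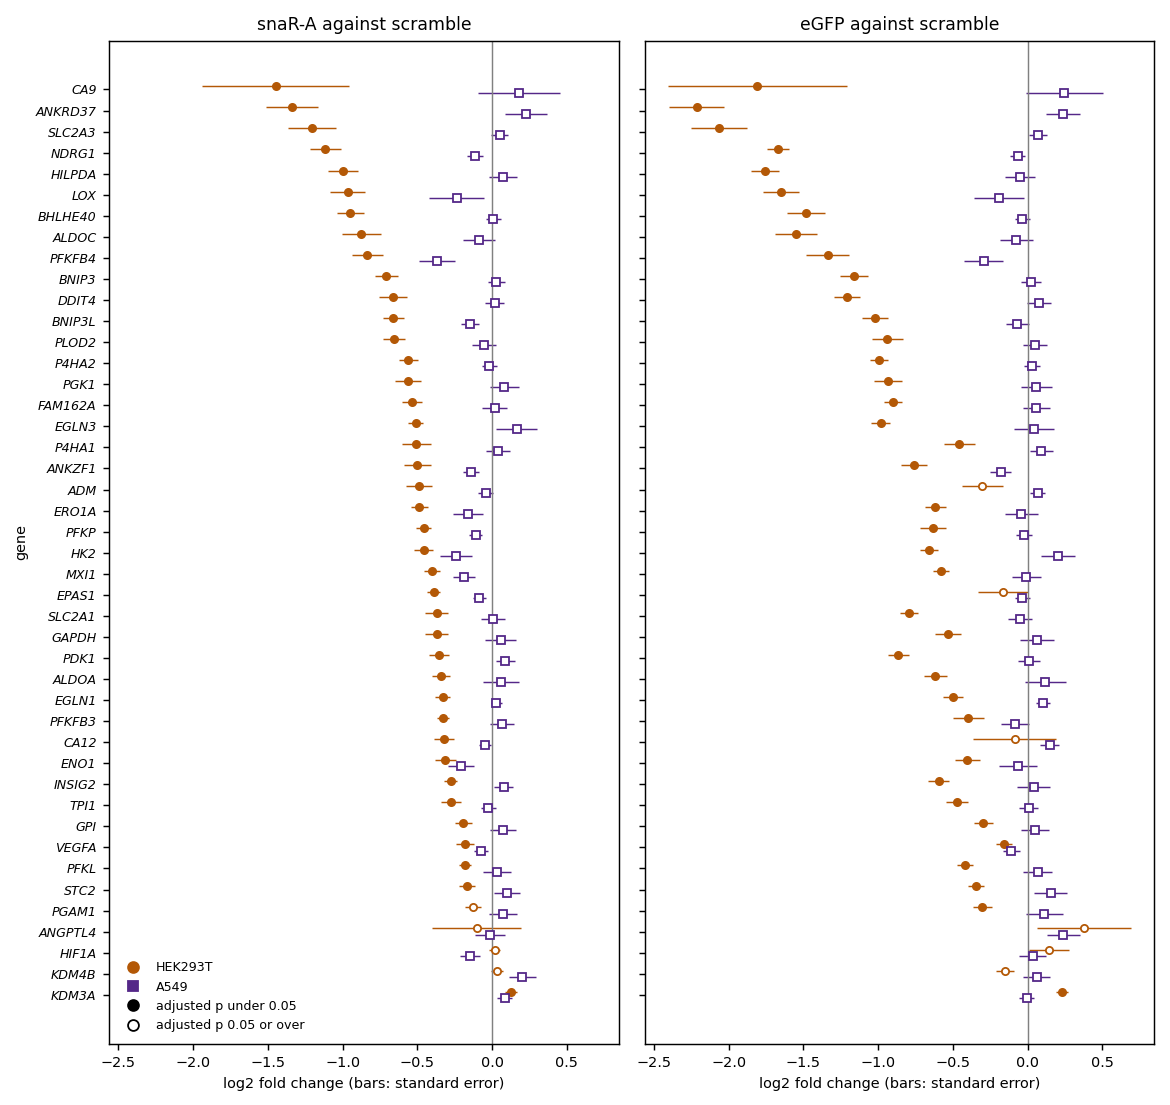
Log2 fold changes of the 44 measured genes against scramble for snaR-A (left) and eGFP (right), with HEK293T as circles, A549 as squares, bars for the standard error and filled symbols for an adjusted p under 0.05. In HEK293T most symbols lie left of 0, down to -2.21 for ANKRD37 with eGFP, and every A549 symbol is open and lies between -0.37 and 0.25.

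The lines also differed in the level of these genes, over 12 libraries each of all 4 plasmids. Of the 44 genes, 26 were higher in A549 and 15 lower, where 41.7% of all genes tested were higher and 42.1% lower. Beyond 1 on the log2 scale, 16 were higher and 8 lower, where 22.7% and 24.7% of all genes tested were. BNIP3, P4HA1 and DDIT4 were not called. Without both HEK293T eGFP replicate 3 and A549 scramble replicate 3, a setting chosen after their marker genes were seen, 40 were called, and without HEK293T SF3B2 replicate 3, 41 were, where 82.6% and 82.8% of all genes tested were called in either direction. Leaving out HEK293T eGFP replicate 3 or A549 scramble replicate 3 alone gave 41 and 39 calls, beside 82.8% and 83.1% of all genes tested. The lines were kept in different media, so an effect of the line and of its medium cannot be told apart.

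The oxygen sensing genes stood higher in A549, with HIF1A at 248 CPM per kb against 37.8 in HEK293T (log2 difference 2.72) and EPAS1 at 92.5 against 6.80 CPM per kb (log2 difference 3.79, adjusted p = 1.39e-23 by edgeR). HIF1A therefore had the higher level per length of the pair in both lines. EGLN1 was also higher in A549, whereas EGLN3 was lower by 1.38. Of the secreted and acid-base genes, ANGPTL4, CA12 and CA9 were far higher in A549. ANGPTL4, a lipoprotein lipase inhibitor, was between 5.31 and 7.37 CPM in A549 with a median of 6.35 CPM, and between 0.0936 and 0.293 CPM in HEK293T with a median of 0.136 CPM (log2 difference 5.42, adjusted p = 3.4e-20). CA12 had medians of 434 CPM in A549 and 18.6 CPM in HEK293T (log2 difference 4.45). CA9 had medians of 0.896 and 0.0369 CPM (log2 difference 4.33, adjusted p = 1.39e-12). For these genes no library of one line overlapped the other.

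The genes lower in A549 included HK2, with a median of 2.45 CPM against 104 CPM in HEK293T (log2 difference -5.46, adjusted p = 1.12e-23), and LOX, with a median of 0.854 CPM against 24.6 CPM (log2 difference -4.94). PDK1 had medians of 8.92 and 70.1 CPM (log2 difference -2.98) and ALDOC of 1.78 and 8.74 CPM (log2 difference -2.35). Here too the lines did not overlap in any library. Per kb of transcript, GAPDH was the most abundant of the genes in both lines, at 992 CPM per kb in HEK293T and 2453 in A549, followed by ENO1 at 671 and 1124 and TPI1 at 337 and 428. In HEK293T the lowest were CA9 at 0.0300 and ANGPTL4 at 0.0815 CPM per kb, and in A549 LOX at 0.174 and HK2 at 0.450 CPM per kb.

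**Figure D5:**
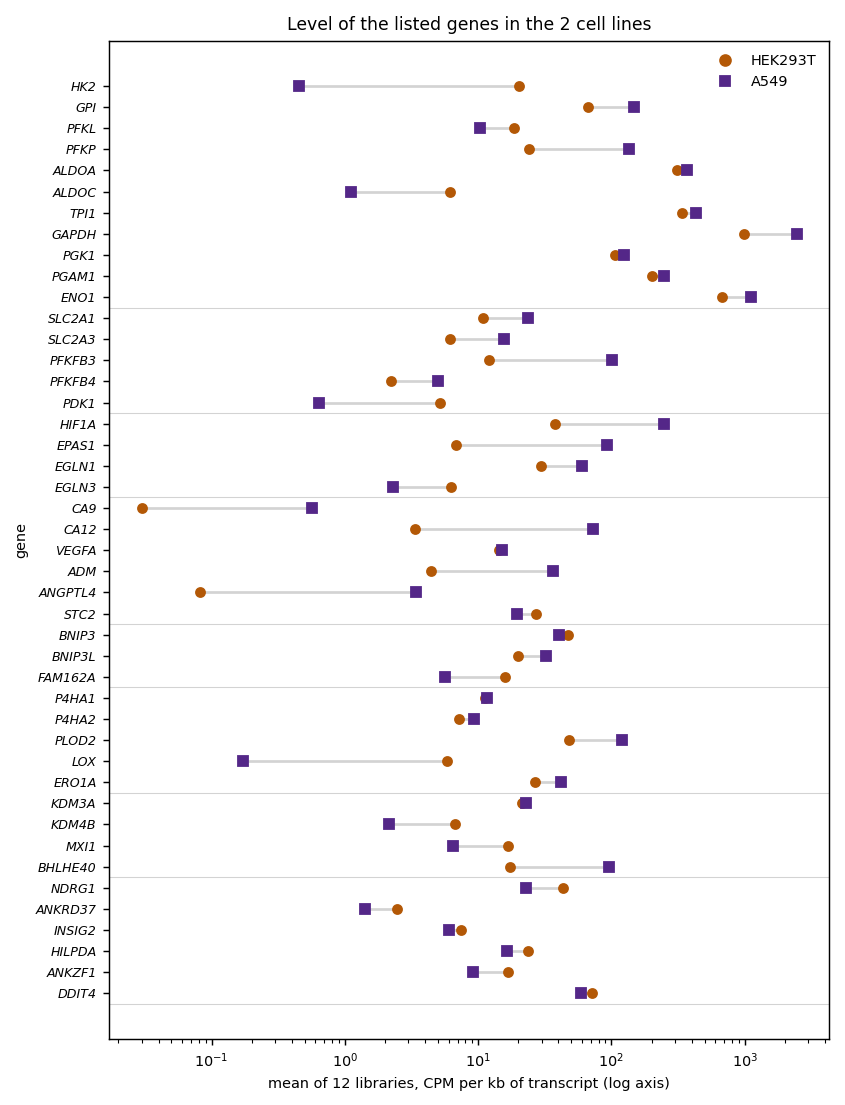
Mean level of each measured gene in CPM per kb of transcript on a log axis, over the 12 HEK293T libraries (circles) and the 12 A549 libraries (squares), with a grey line joining the pair. The glycolytic enzymes other than HK2 and ALDOC sit above 10 CPM per kb in both lines, and HK2, ANGPTL4, LOX and CA12 show the longest lines.

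VEGFA changed by small amounts. Its 3 libraries lay between 54.0 and 59.0 CPM in HEK293T scramble, 47.7 and 54.4 CPM in snaR-A, 49.2 and 53.5 CPM in eGFP, while SF3B2 had 47.9 ± 2.74 CPM (SD, n = 3). The eGFP and SF3B2 libraries did not overlap those of scramble, and the snaR-A libraries did. Beside its calls with snaR-A and eGFP, VEGFA was called lower with SF3B2 with a change of -0.24 on the log2 scale (adjusted p = 0.0291), which 3 of the 6 fits that left out a library kept. In A549 its levels lay between 49.9 and 57.2 CPM in all 12 libraries, with groups that overlapped. EPAS1 in A549 lay between 447 and 498 CPM, and HIF1A between 908 and 1140 CPM, with no call in any A549 comparison. GAPDH in A549 lay between 2599 and 3547 CPM, and both its ends were set by single scramble and SF3B2 libraries. CA9 in A549 lay between 0.517 and 1.07 CPM, with groups that overlapped.

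Genes of the same pathways outside the list were called in both directions in HEK293T with snaR-A. Of 24 further glycolytic genes, 17 were tested, 7 were lower and 2 higher, with a median log2 fold change of -0.15. ENO2, the neuronal enolase and a known HIF target, fell by 0.78 (adjusted p = 0.000701), and LDHC, the testis lactate dehydrogenase, rose by 0.43 (adjusted p = 0.00366). Of 15 further oxygen sensing genes, 3 were lower and 2 higher, near the shares of all genes tested (18.5% lower and 17.8% higher). ARNT, the partner of the HIF alpha subunits, fell by 0.29 (adjusted p = 0.00136), and CITED2, a HIF target that competes for p300 and CBP, fell by 0.42 (adjusted p = 0.00175). EGLN2, a prolyl hydroxylase, rose by 0.33 (adjusted p = 0.00147). Of 20 further HIF targets, 12 were lower and 2 higher, with a median of -0.26. Among them PPFIA4 fell by 0.69 (adjusted p = 0.000661) and GBE1, the glycogen branching enzyme, by 0.51 (adjusted p = 0.000833), whereas RIOK3, a kinase, rose by 0.48 (adjusted p = 0.00025). The shares of all genes tested in this comparison are those given above for the main list.

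The ATF4 targets, genes of the amino acid and stress response, were split. Some of them, DDIT4 and VLDLR among them, are also on the lists of hypoxia genes. Of 15 listed, 14 were tested, 5 were higher and 5 lower. SLC7A11, the cystine transporter, rose by 0.48 (adjusted p = 0.0011) and CHAC1, which breaks down glutathione, by 0.66 (adjusted p = 0.00142), while VLDLR fell by 0.58 (adjusted p = 0.000902). With eGFP, 13 of 20 further HIF targets were lower and 3 higher, and of the ATF4 targets 7 were lower and 3 higher, where 25.8% of all genes tested were lower and 22.9% higher. With SF3B2 against scramble the counts were 9 lower and 1 higher for the HIF targets and 6 lower and 2 higher for the ATF4 targets, where 17.5% of all genes tested were lower and 16.8% higher. Without eGFP replicate 3 the eGFP counts were 13 lower and 2 higher for the HIF targets and 6 lower and 3 higher for the ATF4 targets. Without SF3B2 replicate 3 the SF3B2 counts were 10 lower and 1 higher, and 6 lower and 2 higher. CXCR4, a chemokine receptor and HIF target, fell by 1.76 (adjusted p = 8.42e-05) with eGFP and by 1.06 (adjusted p = 0.000867) with SF3B2.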

How the data were processed

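Libraries were stranded and made from rRNA-depleted, poly(A)-enriched RNA. According to the submitters' processing notes, the authors trimmed reads with Trim Galore, quantified them with Salmon against hg38 and deposited one table of estimated counts per Ensembl gene, not normalized between libraries. Non-whole values made up 51.0% of the table, and rounding preceded testing. Where no read was counted, up to 3 counts remain possible, a limit for counting error alone. Symbols were found for 54903 of 60236 IDs.

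R 4.3.3 with edgeR 4.0.16 (filterByExpr, TMM, quasi-likelihood F-test, Benjamini-Hochberg adjustment) fitted the 6 libraries of each plasmid comparison, 12 libraries for differences in effect between the lines and 24, with plasmid as a term, for the lines. DESeq2 1.42.0 and edgeR's exact test were alternatives, with RLE scaling, other count filters, a joint fit of the 12 libraries of a line, a replicate block, and fits without each library in turn. Exact permutation tests of 3 against 3 cannot go below p = 0.1 and were not used. The steps were tested on simulated data. Tables and plots were made with pandas 2.3.3, matplotlib 3.10.9 and numpy 2.4.6 under Python 3.11.15. Sequence words were counted in GENCODE 44 transcripts.

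The members and lists were chosen with earlier results of these data known. Values per library are given for the 3 members with the largest called change in each direction without overlap. Ranges, means or medians are given for 4 in each direction between the lines. For HIF1A, EPAS1, CA9, VEGFA, SLC2A1 and GAPDH, library values or ranges are given in some of the groups. From other lists, changes are given for at most 2 genes in each direction. PGK1, NDRG1, HILPDA and LOX in further groups were added after their values were seen. Replicate numbers did not pair the libraries: over 18 pairs with the same number in each line, the median correlation of residuals was -0.0107 in HEK293T and -0.00131 in A549. No replicates were copies of each other.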

Additional observations from a re-analysis of the deposited data

Results flagged for a closer look

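The change from scramble to snaR-A was compared between A549 and HEK293T in an interaction test. It differed for 23 members, all with a higher value in A549. Of all genes tested, 4.79% differed in that direction and 6.64% in the other. ANKRD37 (1.55), SLC2A3 (1.24), HILPDA (1.06) and NDRG1 (0.99) showed the largest called differences on the log2 scale, A549 minus HEK293T. Against the same HEK293T scramble libraries, the median member also fell with eGFP (-0.62) and SF3B2 (-0.49), beside -0.46 with snaR-A. A fall with these plasmids and a rise with scramble cannot be told apart here. The effect of SF3B2 against eGFP differed for 7 members, all lower in A549, where 2.58% of all genes tested differed upward and 3.52% downward. The largest called differences were in SLC2A3 (-1.20), NDRG1 (-0.70), PLOD2 (-0.69) and HK2 (-0.65). Leaving out single libraries moved this count between 3 and 14, and other settings moved it between 1 and 15. HEK293T eGFP replicate 3 held ALDH1A1 at 423.6 CPM and AKR1B10 at 99.74 CPM, genes that mark A549, above their levels in the other HEK293T libraries. A549 scramble replicate 3 held SF3B2 at 8743 CPM, above the other scramble libraries. How these libraries came to hold that RNA was not tested.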

How the results depend on the processing

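Under all alternatives run, the counts of called members stayed within 1.5 times of the reported value for the scramble comparisons of HEK293T, for snaR-A and eGFP against scramble in A549, for the difference in the snaR-A effect between lines and for the line comparison. Leaving out single libraries gave 35 to 39 calls for snaR-A against scramble in HEK293T, 26 to 37 for SF3B2 against scramble, 35 to 39 for eGFP against scramble, 20 to 32 for the snaR-A difference between lines and 39 to 41 between the lines. The share of all genes called moved as well. For SF3B2 against scramble in HEK293T it was 16.8% without scramble replicate 1 and 38.8% without SF3B2 replicate 3. These member counts therefore describe the stability of the calls alone. The comparisons of SF3B2 were less stable. For SF3B2 against eGFP in HEK293T, DESeq2 called 13 members, edgeR's exact test 7 and a fit of all 12 libraries 8, against 0 reported, and leaving out single libraries gave 0 to 10. For SF3B2 against eGFP in A549, DESeq2 called 9, and leaving out single libraries gave 0 to 9. The count was 9 without eGFP replicate 3 and 0 without eGFP replicate 2 or any SF3B2 library. The shares of all genes called in the A549 fits are not given, so their counts describe the stability of the calls alone. In HEK293T the shares were 11.3% with DESeq2, 2.85% with the exact test and 8.09% without SF3B2 replicate 3. The share for the fit of all 12 libraries is not given. For SF3B2 against scramble in A549, DESeq2 called 2, the exact test 1, and leaving out single libraries gave 0 to 20. For the SF3B2 difference between lines DESeq2 called 15, and leaving out single libraries gave 3 to 14. The share of all genes called by DESeq2 is not given here either, so the 15 cannot be set against it. The cause of these shifts was not tested.

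With replicate number as a block, the counts were 0 for SF3B2 against eGFP in A549 and 1 for the SF3B2 difference between lines. For the other comparisons the block gave 37 (snaR-A), 31 (SF3B2) and 36 (eGFP) calls against scramble in HEK293T, 23 for the snaR-A difference and 41 between the lines. The shares of all genes called with the block are not given here. The replicate numbers do not pair the libraries. Among the genes named by rule, 435 results of alternatives kept their side of the threshold, 52 lost their call and none turned direction. CA9 in HEK293T rests on 2 to 39 counts per library and limits its own comparison.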
